A study of Mus with 5 samples.

Results

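The binding of RARα to chromatin was compared between mouse CD8 T cells kept with and without retinoic acid (RA). The members are all RARα peaks that the authors called on chromosomes 1 to 19, X and Y. These were 1160 peaks in the control list and 565 peaks in the RA list, 1725 regions of the 27480 in the 4 peak lists of the series. Wild-type (WT) naive CD8 T cells from spleen had been activated for 24 h with antibodies to CD3 and CD28 plus IL-2 and rested for 24 h in IL-2 at 100 U/ml. The last step was 1 h of culture, either with no RA (control) or with RA at 50 nM. The treatment field of the sample labels gives IL-7 for the control cells and IL-8 for the RA cells, whereas the culture protocol gives IL-2 for both. Bound DNA was recovered by chromatin immunoprecipitation with an antibody against RARα and sequenced (ChIP-seq). Each list was called on 2 pooled alignment files against the same IgG file, and whether the IgG cells had received RA is not stated. With a single pooled list on each side, the spread between replicates is unknown and the conditions were not tested against each other. The pools held 22655611 fragments for control and 22475060 for RA, against 11410673 for IgG.

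RARα is a nuclear receptor that sits on DNA as a partner of RXR and is activated by RA, which cells make from vitamin A. Without ligand the receptor holds corepressors, and RA exchanges these for coactivators. In T cells, RA is known for inducing the receptors that direct the cells to the gut.

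A peak counts here as shared if the other list has one no farther than 5 kb from it, and a gene was placed by the lists whose peaks name it in the authors' annotation. Most RARα sites were listed in 1 condition only. Of the 1160 control peaks, 111 were shared (9.57%, Wilson 95% interval 8.01 to 11.4). Of the 565 RA peaks, 98 were shared (17.3%, 14.4 to 20.7). These intervals, like all others on shares, cover counting error only. The median fold enrichment over IgG was 4.88 at the shared control peaks and 3.09 at the control peaks without an RA peak. It was 3.92 at the shared RA peaks and 2.78 at the RA peaks without a control peak.

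Strong peaks were found in the other condition more often than weak ones. Of the 50 control peaks with a −log10 p of 20 or more, 31 were shared (62.0%, 48.2 to 74.1), whereas 12 of the 314 between 3 and 4 (3.82%) and 8 of the 337 between 4 and 5 (2.37%) were. In the RA list, all 9 peaks with a −log10 p of 20 or more and 27 of the 31 between 10 and 20 (87.1%, 71.1 to 94.9) were shared, against 10 of the 256 between 3 and 4 (3.91%, 2.14 to 7.04). The RA list thus held few strong sites that the control list lacked, while the control list held many strong sites that the RA list lacked. Under a −log10 p threshold of 5, the lists held 509 control and 120 RA peaks, of which 76 control peaks (14.9%) and 70 RA peaks (58.3%) were shared. The weakest control peak inside this threshold had a −log10 p of 5.03 and the strongest outside it 4.99, and in the RA list these were 5.05 and 4.86.

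**Figure D1:**
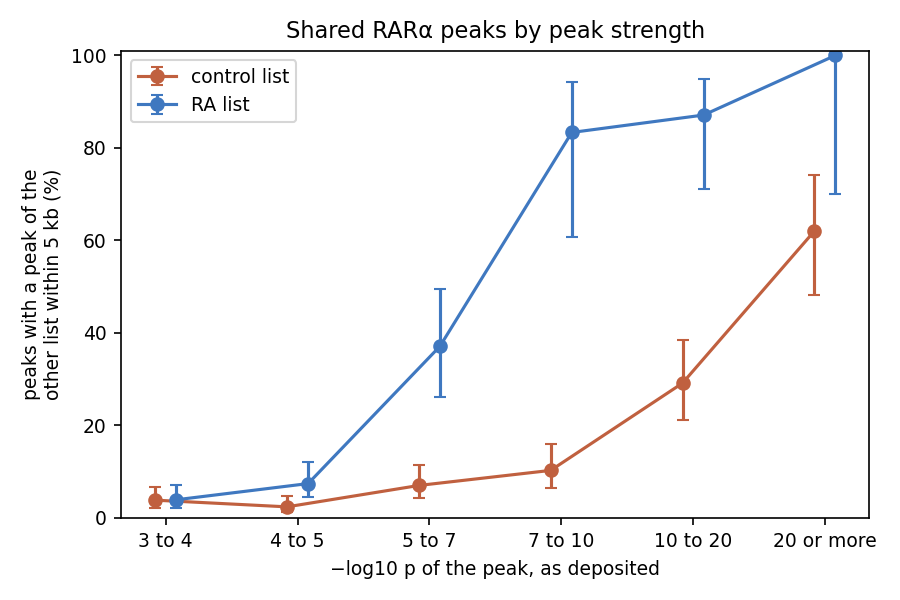
Share of RARα peaks (in percent) that were shared between the lists, by the deposited −log10 p of the peak; points are the control and RA lists and bars are Wilson 95% intervals for counting error. The RA line reaches 83.3% between 7 and 10, where the control line is at 10.3%.

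Promoters made up a smaller part of the RA list. Promoter peaks numbered 229 of 1160 in the control list (19.7%, 17.6 to 22.1) and 45 of 565 in the RA list (7.96%, 6.01 to 10.5). Intergenic peaks numbered 504 (43.4%, 40.6 to 46.3) and 333 (58.9%, 54.8 to 62.9). Intron peaks kept a like share, 397 (34.2%) against 183 (32.4%), and exon peaks numbered 30 and 4. Of the 30 control peaks of the exon class, the finer annotation column places 6 in an exon and 11 in an intron, so this class is the least certain. At a −log10 p of at least 5 the promoter shares were 17.9% (91 of 509, 14.8 to 21.4) and 13.3% (16 of 120, 8.38 to 20.6), whose intervals overlap.

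The classes differed little in how often a control site was shared, and more in how often an RA site was. With RA, 25 of 229 promoter peaks of the control list (10.9%), 38 of 397 intron peaks (9.57%) and 47 of 504 intergenic peaks (9.33%) had a counterpart. Seen from the RA list, 21 of 45 promoter peaks (46.7%, 32.9 to 60.9), 34 of 183 intron peaks (18.6%, 13.6 to 24.8) and 42 of 333 intergenic peaks (12.6%, 9.47 to 16.6) had one. The 467 sites of the RA list alone were mainly intergenic (291) and intronic (149), with 24 at promoters and 3 in exons. The 1049 of the control list alone were also mainly intergenic (457) and intronic (359), with 204 at promoters and 29 in exons.

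**Figure D2:**
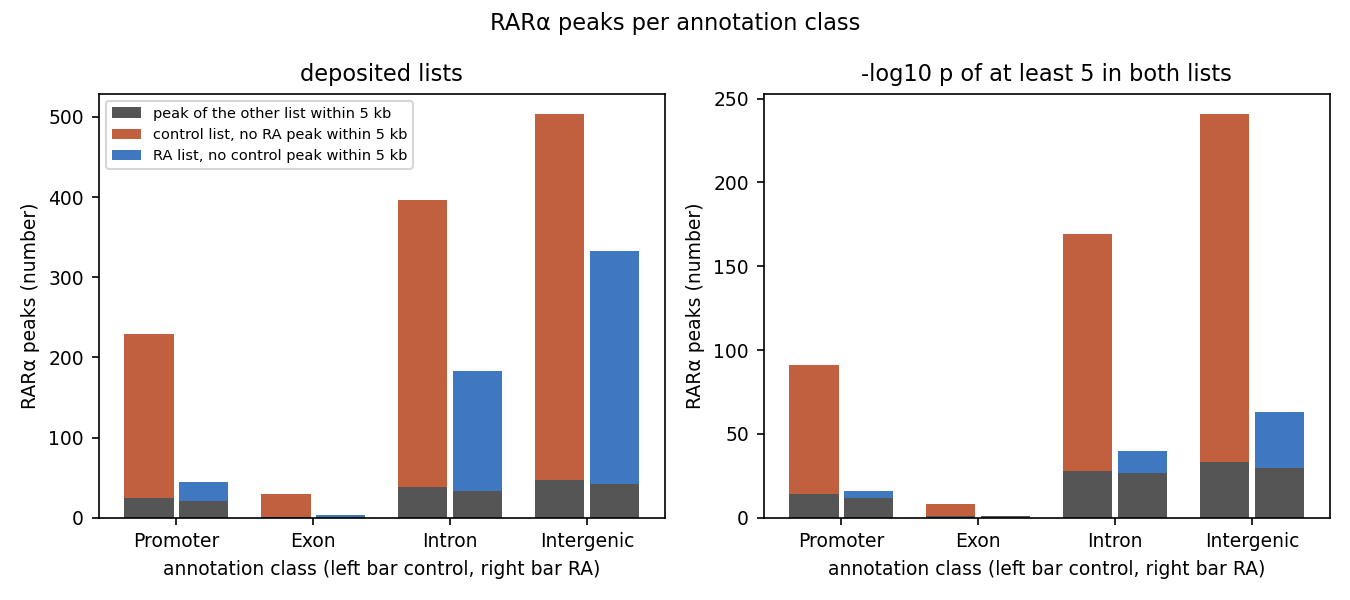
Number of RARα peaks per annotation class in the deposited lists (left) and at a −log10 p of at least 5 (right); in each pair the left bar is control and the right bar RA, and grey marks the shared peaks. Grey takes 21 of 45 promoter peaks and 42 of 333 intergenic peaks of the RA list.

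The strongest sites of the control list alone lay in or near Lig1, Tbc1d5, Art2b, the GIMAP cluster, Asb2 and Klf2. The first was in Lig1, which encodes DNA ligase I, at chr7:13302406-13303309 (mm10). It had a pileup of 105 fragments and a fold enrichment of 17.8, and the nearest RA peak was 1016 kb away. The authors' class for it is exon, while the finer column gives intron 19 of 28. A promoter peak at Art2b, an ADP-ribosyltransferase of the T cell surface, at chr7:101580903-101581555 had a pileup of 71 and a fold of 13.8. A peak in intron 2 of 9 of Asb2, part of a ubiquitin ligase and long known as an RA-induced gene, at chr12:103341066-103341573 had a pileup of 47 and a fold of 11.2. An intergenic peak 9.28 kb from Klf2, a transcription factor of T cell quiescence and trafficking, at chr8:72330933-72331719 had a pileup of 62 and a fold of 7.93. It also names Ap1m1, Calr3 and Eps15l1. The Lig1, Art2b, Asb2 and Klf2 sites had a BATF peak within 5 kb in control cells. An intergenic peak 3.01 kb from Tbc1d5 at chr17:50729635-50730118 had a pileup of 86 and a fold of 10.9 and had none.

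The 6 shared sites of smallest control p were listed with a lower fold enrichment with RA. Choosing them by their control value favours a lower value in the RA list, and among the 6 shared sites of smallest RA p, 4 were lower with RA and 2, at 1110037F02Rik and Smg6, were higher. The peak of smallest p in both lists lay 1.64 kb from Osgin1, an oxidative stress gene, at chr8:119423639-119424246 in the control list. Its pileup was 131 (exact Poisson 95% interval 110 to 155) in control cells and 53 with RA, and its fold 29.3 and 11.5. The peak 4.63 kb from Adprhl1 at chr8:13213308-13214155 had pileups of 152 and 58 and folds of 19.2 and 7.47. In intron 4 of 6 of Galm, which encodes galactose mutarotase, the pileup was 88 in control and 47 with RA. In intron 1 of 22 of Ncoa3, a coactivator of nuclear receptors, it was 56 and 30, with folds of 13.3 and 6.62. In intron 3 of 11 of Lef1, a transcription factor of naive and memory T cells, it was 63 and 35, with folds of 10.7 and 6.08. The intergenic site on chromosome 6 that names Gm1965 and 4933427D06Rik had pileups of 63 and 38. It had a BATF peak within 5 kb with RA but not in control cells. The Osgin1, Adprhl1, Galm, Ncoa3 and Lef1 sites had one in both conditions.

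Among the 111 shared control peaks, each set beside its RA counterpart, 81 had the lower fold enrichment with RA (73.0%, 64.0 to 80.4). The median fold was 4.88 in control and 4.05 with RA, and the median ratio of RA to control was 0.803. The pairs are not independent, since they draw on 97 RA peaks. In 90 pairs the peaks overlapped by at least 1 bp, and 70 of these (77.8%, 68.2 to 85.1) were lower with RA. In the 21 pairs that did not overlap, 11 were lower (52.4%, 32.4 to 71.7), at a median ratio of 0.998. By class, 20 of 25 promoter pairs, 27 of 38 intron pairs and 34 of 47 intergenic pairs were lower. Within a pair the counting error was often as large as the difference. The exact Poisson 95% intervals of the pileups were apart in 7 of the 111 pairs. In 5 of these control was higher, at Osgin1, Adprhl1, Galm, Hemk1 and the promoter shared by Rbks and Bre. In 2 the RA peak was higher, at Lef1 and near Trim12a, and in both of these the peaks of the pair did not overlap. These 7 pairs are named because of their values.

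In the other 30 of the 111 pairs the fold enrichment was higher with RA, and in 20 of these the peaks overlapped. The strongest intron peak of the RA list, in 1110037F02Rik, lies in a repeat of the SINE class. It had pileups of 37 in control and 43 with RA, and folds of 9.40 and 10.5. In an intron of Smg6, a gene of nonsense-mediated decay, the pileups were 23 and 38 and the folds 6.18 and 9.86. An intergenic site that names Gtf2e2, Gsr and 4 other genes had pileups of 16 and 31 and folds of 4.38 and 8.09. In an intron of Sorcs2 the pileups were 23 and 34. The intergenic site 83.9 kb from Csf2, which encodes GM-CSF and is one of 4 genes named there, had pileups of 26 in control and 40 with RA, and folds of 3.40 and 5.19. The site in intron 1 of 8 of Smad3, a mediator of TGF-β signals, had pileups of 20 and 26 and folds of 4.22 and 4.56. The site near Nrip1, a corepressor of nuclear receptors, had pileups of 16 and 19. The exact Poisson intervals of the pileups overlap at all 7 sites. Overlap of intervals is not a test of a difference, and none was run at these sites. Smg6, Gtf2e2 and Sorcs2 were chosen after their values were seen.

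**Figure D3:**
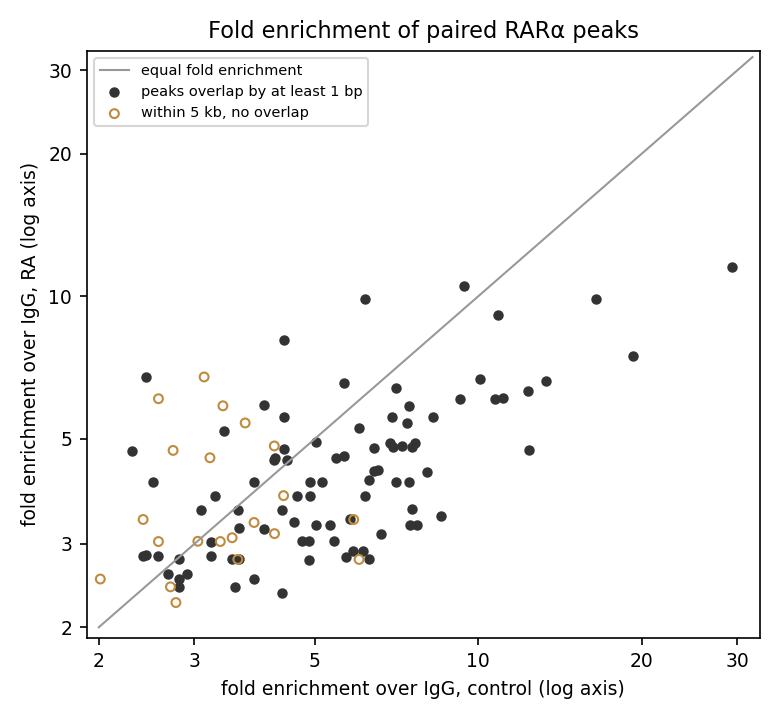
Fold enrichment over IgG in control (x axis, log scale) and with RA (y axis, log scale) for the 111 shared control peaks, each paired with the RA peak of nearest midpoint; filled points overlap by at least 1 bp and the line marks equal values. Below the line lie 81 points, among them the peaks of highest control fold.

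The strongest sites of the RA list alone had pileups from 17 to 34. The first, 54.4 kb from Arhgap11a at chr2:113903068-113903425, had a pileup of 24 and a fold of 6.32 and lies in an LTR element, a retroviral repeat. A peak in intron 1 of 4 of H2-Eb2, an MHC class II gene, at chr17:34329789-34330241 had a pileup of 34 and a fold of 4.43. A peak 31.7 kb from Wnt8b, which also names the fatty acid desaturase gene Scd1, at chr19:44461519-44461810 had a pileup of 20 and a fold of 5.31. Deptor, an inhibitor of mTOR, had a peak in an L1 repeat at chr15:55160622-55160966 with the same pileup and fold. The peak that names St8sia6, Trdmt1 and Vim, at chr2:13616968-13617314, lies in an L1 repeat too and had a pileup of 17. None of these 5 sites had a BATF peak within 5 kb in RA cells. The next, 41.7 kb from 4930572O13Rik at chr14:25184930-25185276, had a pileup of 21 and a BATF peak nearby.

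Many peaks of 1 list sat at the edge of what the caller accepts. The deposited p-values are the Poisson tail of the pileup over the local IgG level, within 3.66e-04 on the −log10 scale, so the pileup that a site needs to be called can be computed. The peaks of the control list alone had a median pileup of 13 fragments, where a median of 10 would have been needed in the RA list, and 538 of the 1049 (51.3%) were within 2 fragments of that number. The peaks of the RA list alone had a median pileup of 11 where 9 would have been needed in the control list, and 359 of the 467 (76.9%) were within 2 fragments. The lower bound of the exact Poisson interval exceeded the needed pileup at 162 control sites (15.4%, 13.4 to 17.8) and at 6 RA sites (1.28%, 0.590 to 2.77). These 6 are the first 5 above and a peak 13.4 kb from Cyp2a12. This comparison was chosen after the data had been seen, takes the IgG level as equal up to the scale of the 2 lists, and leaves out the caller's length minimum.

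At gene level, 1481 of the 2257 genes named by either list (65.6%) were named by the control list only, 290 (12.8%) by both and 486 (21.5%) by the RA list only. At a −log10 p of at least 5, the counts were 772 (77.5%), 183 (18.4%) and 41 (4.12%) of 996 genes. Of the 955 genes with a control peak at this threshold, 731 had no RA peak at all in the deposited list (76.5%, 73.8 to 79.1). Of the 224 genes with an RA peak at this threshold, 35 had no control peak (15.6%, 11.5 to 21.0). A gene named by both lists was not always bound at the same site, since 225 of the 290 had a pair of peaks within 5 kb that both name it. Genes share peaks, because 333 control peaks and 130 RA peaks name several genes, with a median distance of 43.8 kb from intergenic control peaks. Another 130 control peaks (11.2%) and 172 RA peaks (30.4%) name no gene.

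At promoters, 253 genes were named by the control list and 51 by the RA list. The 22 named by both included Lif, Gfi1, Nt5e, P2rx7, Dusp5 and Itch. Of the 29 promoters in the RA list alone, 4 belong to genes with another control peak. Snai1, a transcriptional repressor, was one of the 4 promoter genes of the RA list alone at a −log10 p of at least 5. The others were 1810011H11Rik, Gpsm2 and Letmd1, and all 4 are named here because they are few. Gpsm2 and Letmd1 had weaker control promoter peaks, with −log10 p of 3.33 and 3.68.

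The 15 lists of T cell and RA genes held 254 genes, of which 115 were named by a RARα peak. The share of all annotated genes that a RARα peak names was not computed. This count, those of the single lists and that of the marker genes therefore have no genome background beside them. Of these 115, 79 (68.7%) were in the control list only, 30 (26.1%) in both and 6 (5.22%) in the RA list only. Over all named genes the shares were 65.6%, 12.8% and 21.5%. The lists were drawn up with earlier results of these data known. From the same data, the paper reports less RARα binding with RA at Lif, Gfi1 and Asb2. It also names Irf4, Irf8, Prdm1, Gzma, Ifng and others among loci bound by RARα and BATF. The shares of lists that hold such genes are therefore a description and not independent support. Some of the listed genes share peaks, so they are not separate sites. Among the 30 in both, this holds for the 8 GIMAP genes, for Il4ra with Il21r and for Ccr9 with Cxcr6. In the control list only, it holds among others for Gzma with Gzmk, Ifngr2 with Ifnar1, Il2ra with Il15ra and Tnfrsf4 with Tnfrsf18. Cd8a with Cd8b1, Ccr8 with Cx3cr1 and, across lists, Ccr7 with Top2a are further cases. The counts of the single lists below therefore hold some sites more than once. The 6 of the RA list only were Rarb, Ncoa1, Crebbp, Tgm2, Satb1 and Gzmb, and none of these reached a −log10 p of 5.

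Among the receptors and coregulators of RA signalling, 8 of 19 genes were named. Nrip1 and Ncoa3 were in both lists. Rara itself and Ep300, an acetyltransferase coactivator, were among those in the control list only. Rara had 1 peak in intron 1 of 8 at chr11:98945208-98945478 with a pileup of 13 and a −log10 p of 4.88. Rarb, a conventional target of the receptor, had 1 RA peak in an L1 repeat at chr14:16689754-16690038, with a pileup of 9, the smallest in either list. Among genes of RA metabolism and conventional targets, 4 of 18 were named. Asb2 was in the control list only and Tgm2, which encodes a transglutaminase, in the RA list only with a pileup of 12. Lif, a cytokine of the IL-6 family, had 4 control peaks and 1 RA peak. Its strongest site at chr11:4268285-4268962 had pileups of 45 and 27, and folds of 6.61 and 3.15. Gfi1, a transcriptional repressor of lymphocytes, had 1 promoter site with pileups of 21 in control and 13 with RA. No peak of either list names Cyp26a1, Cyp26b1, Dhrs3 or Stra6.

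Of the 10 gut-homing and RA-induced surface genes, Ccr9, P2rx7 and Nt5e were in both lists and Art2b and Itgb7 in the control list only. Ccr9, the chemokine receptor of the small intestine, was named by 2 control peaks. One at chr9:123740751-123741293, 25.9 kb away, had pileups of 47 in control and 24 with RA, and folds of 12.4 and 6.32. The other, 3.17 kb away, had a pileup of 22 in control and no RA peak. P2rx7, the receptor for extracellular ATP that acts downstream of the ART2 enzymes on T cells, kept its promoter site at chr5:122645213-122645607, in an L1 repeat. The pileups there were 44 in control and 49 with RA. The folds were 5.66 and 4.61 over recovered IgG levels of 6.95 and 9.85 fragments. No BATF peak lay within 5 kb of any P2rx7 site. P2rx7 also had an intron peak in the RA list alone, with a pileup of 14. Nt5e, which encodes the adenosine-producing enzyme CD73, had pileups of 40 and 22 at its main promoter site.

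The GIMAP genes, a cluster of GTPases on chromosome 6 that supports lymphocyte survival, were all 8 in both lists at both thresholds. They share their peaks, and Gimap1 was named by 6 control and 3 RA peaks. The strongest control peak, at chr6:48679607-48680420 and 0.491 kb from Gimap9, had a pileup of 68 and a fold of 9.92 and no RA peak within 52.3 kb. It lies in a repeat of the SINE class. A second at chr6:48732662-48733381 had pileups of 50 and 37, and another at chr6:48785168-48785605, in an LTR element, had pileups of 34 and 33. The strongest control site of the cluster was thus not listed with RA, while these others were. Ifngr1, the binding chain of the interferon-γ receptor, was named by 7 control and 2 RA peaks. At the site in its intron 2 of 6 the pileup was 16 in control and 26 with RA, and at the site 86.8 kb away it was 36 and 28.

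The lists of naive, effector and cytokine genes are set beside the 65.6% in the control list only and 12.8% in both over all named genes. At a −log10 p of at least 5 the share in control only was 77.5% over all named genes. There it was 6 of 7 naive and memory genes (85.7%) and 9 of 10 effector transcription factors (90.0%). It was 6 of 7 effector molecules (85.7%) and 7 of 10 cytokine receptors (70.0%). The counts that follow are those of the deposited lists. In the naive and memory list, 10 of the 12 named genes were in the control list only (83.3%), 1 (Lef1) in both and 1 (Satb1) in the RA list only. Foxo1, a transcription factor that maintains naive T cells and drives Klf2, had a pileup of 15 at its promoter. Among effector transcription factors, 13 of 14 were in the control list only (92.9%), Fos being in both. The shared site that names Fos is intergenic and 90479 bp away, and it also names Tmed10, Zc2hc1c and Nek9. Irf8 had a pileup of 22, Runx3 of 20 at the strongest of its 3 peaks and Nr4a1 of 25. Among effector molecules, 6 of 8 were in the control list only. Gzma and Gzmk, neighbouring granzyme genes, share a peak 33859 and 36453 bp away, with a pileup of 51 and a fold of 7.34. Ifng had a pileup of 20 at a site 21.5 kb away. Gzmb, another granzyme, had 1 RA peak in an L1 repeat, with a pileup of 12. Among cytokine receptors, 7 of 11 were in the control list only (63.6%) and 4 in both (36.4%), so the share in control only was near that of all named genes. Il4ra and Il21r share a site 40244 and 91225 bp away, with pileups of 39 in control and 32 with RA. Ifngr2 and Ifnar1 share a control peak with a pileup of 39 and a fold of 9.73, for which no RA peak was listed.

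The remaining lists are small, with 3 to 13 named genes each, and are set beside the same shares. Of the T cell receptor genes, 11 of 13 were in the control list only (84.6%), among them Prkcq with a pileup of 21 and Cd5 with 21. Of the inhibitory and costimulatory receptors, 5 of 6 were (83.3%), and Btla had pileups of 33 and 17. Of the brakes on signalling, 6 of 7 were (85.7%), led by Spred2 with a fold of 6.28, and Dusp5, a phosphatase of ERK, was in both. Of the chemokine receptor and trafficking genes, 5 of 7 were (71.4%) and 2 were in both (28.6%), of which Cxcr6 shares the stronger Ccr9 site. Of the 4 named STAT, SMAD and NF-κB genes, 2 were in the control list only and 2 in both (50.0%). The latter were Nfkb1, a subunit of NF-κB, and Smad3, and Nfkb1 had pileups of 51 and 29. All 5 cell cycle genes and all 3 survival genes named were in the control list only. The cell cycle genes included Myc at a pileup of 14 and Mcm6 at 14, and the survival genes Bcl2, Bcl2l11 and Mcl1 lay between −log10 p of 3.05 and 3.68. At a −log10 p of at least 5, control only held 7 of 7 T cell receptor genes and 3 of 4 inhibitory and costimulatory receptors. It held 6 of 7 brakes, 2 of 4 trafficking genes, 1 of 3 STAT, SMAD and NF-κB genes and 3 of 3 cell cycle genes, beside 77.5% of all named genes.

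**Figure D4:**
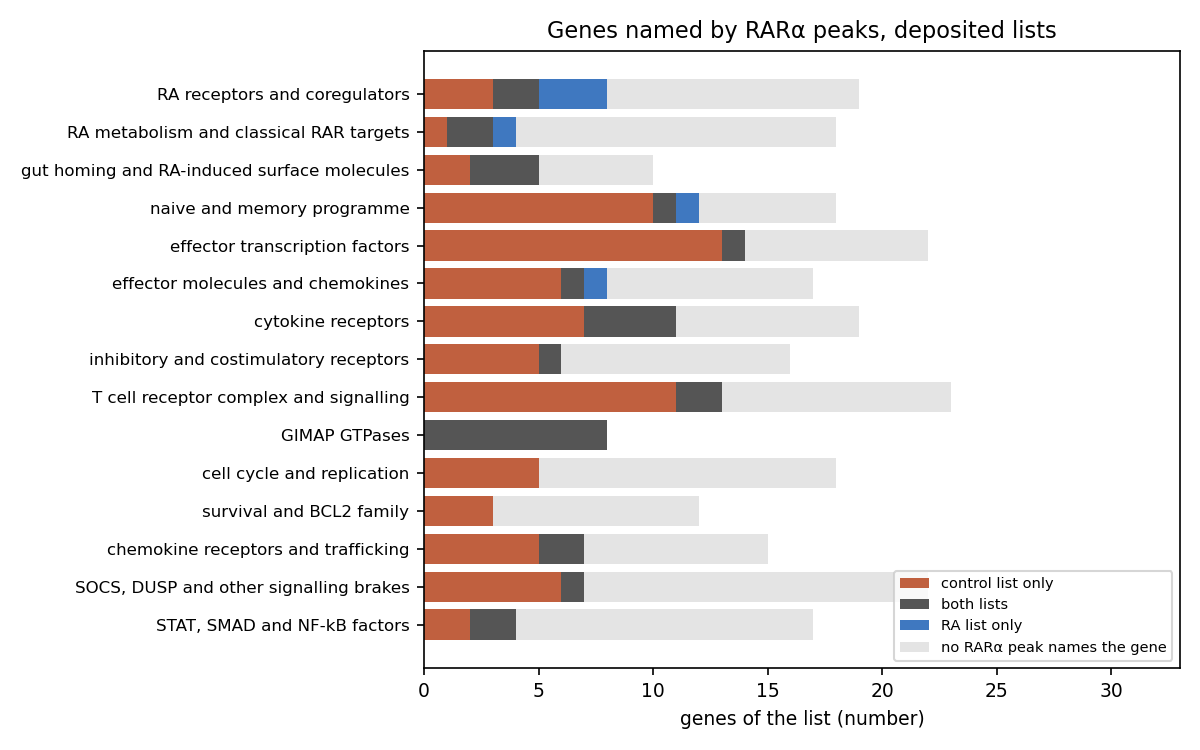
Number of genes in each of the 15 lists by the RARα lists whose peaks name them, in the deposited lists. The 8 GIMAP genes are all in both lists, and 13 of the 14 named effector transcription factors are in the control list only.

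Of the 21 marker genes of other cells, 4 were named by RARα peaks. Among them were Ms4a1 of B cells and Itgam of myeloid cells in the control list, and Ebf1 of B cells in the RA list. The markers of CD4 and regulatory T cells, NK cells and erythroid cells were named by none. Of the CD8 T cell genes, Cd8a and Cd8b1 were named by a control peak with a −log10 p of 3.93. Cd3d and Thy1 were named by control peaks with −log10 p of 3.68 and 4.97. Cd3e, Cd3g and Cd247 were named by no peak of either list. A peak near a gene does not measure its expression, so the lists do not check which cells were present.

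The sites of the RA list alone differed from the rest in their neighbours and their sequence class. A BATF peak of the same condition lay within 5 kb of 647 of the 1049 sites of the control list alone (61.7%, 58.7 to 64.6) and of 24 of the 467 sites of the RA list alone (5.14%, 3.48 to 7.53). At shared sites it was 79 of 111 control peaks (71.2%) and 66 of 98 RA peaks (67.3%). The BATF RA list is shorter than the BATF control list, with 9894 against 15810 peaks. Against the BATF control list, 32 of the 467 sites of the RA list alone (6.85%, 4.90 to 9.51) had a BATF peak nearby. The share was lower in the RA list alone within each large class. A BATF peak lay near 13 of its 24 promoter sites (54.2%), against 184 of the 204 of the control list alone (90.2%). At intron sites the shares were 2.68% and 57.9%, and at intergenic sites 2.06% and 52.1%. Promoters held many of the BATF peaks themselves, 64.6% of the BATF RA list and 58.7% of the BATF control list.

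Repeats took a larger part of the RA list. The finer annotation placed 219 of the 467 sites of the RA list alone in a repeat (46.9%, 42.4 to 51.4), against 232 of the 1049 of the control list alone (22.1%, 19.7 to 24.7). LINE elements, which are mobile repeats that copy themselves through RNA, held 106 (22.7%) and 78 (7.44%). Within intergenic sites alone the LINE shares were 27.5% and 12.3%. The young mouse L1Md families held 43 and 16 sites. Of the 106 LINE sites of the RA list alone, 0 had a BATF peak within 5 kb, and of the 78 of the control list alone, 13 had. At a −log10 p of at least 5, 29 of the 46 sites of the RA list alone lay in a repeat (63.0%, 48.6 to 75.5), against 68 of 418 (16.3%, 13.0 to 20.1). Outside repeats, 22 of 248 sites of the RA list alone (8.87%) and 556 of 817 of the control list alone (68.1%) had a BATF peak nearby. The recovered IgG level was at the genome-wide floor at 394 of the 467 sites of the RA list alone (84.4%) and at 407 of the 1049 of the control list alone (38.8%). In the BATF lists, 1392 of 15810 control peaks (8.80%) and 681 of 9894 RA peaks (6.88%) lay in a repeat. The share of the genome in repeats was not measured, so whether the RA list exceeds it is not known. The part of repeats and of the IgG level in the difference between the lists was not tested.

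**Figure D5:**
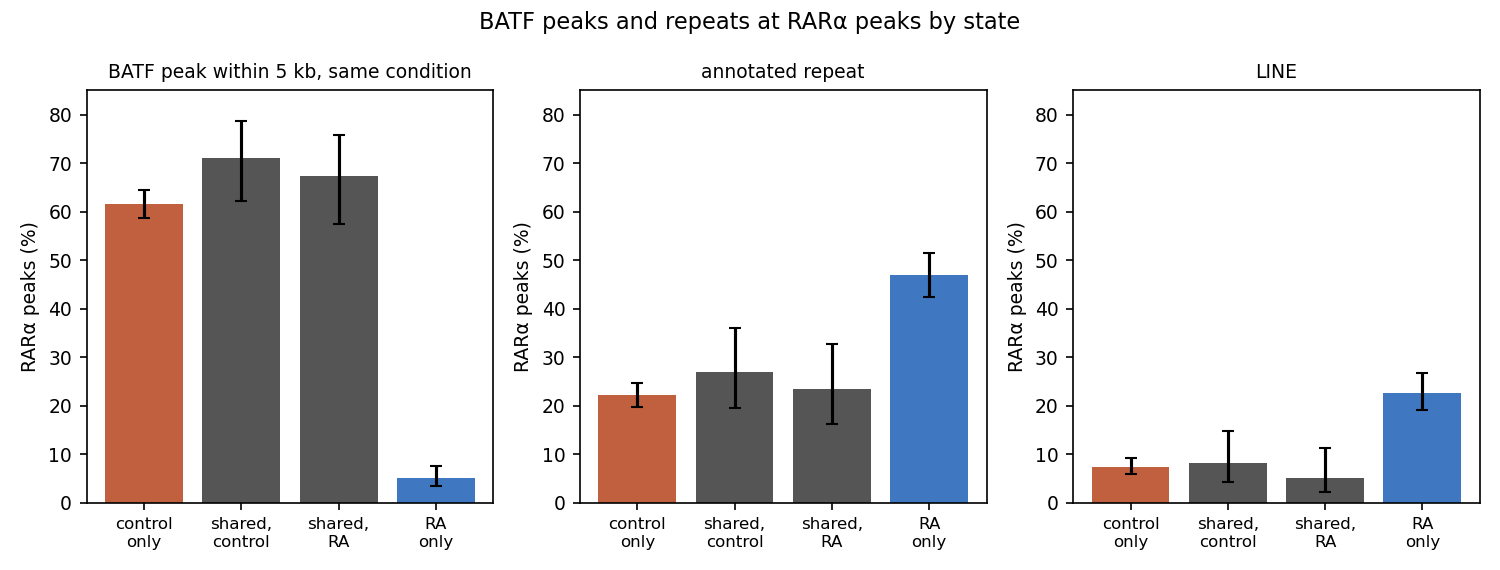
Share of RARα peaks (in percent, with Wilson 95% intervals for counting error) that have a BATF peak of the same condition within 5 kb (left), lie in an annotated repeat (middle) or in a LINE (right), by state. The RA-only bar is the lowest on the left, at 5.14%, and the highest in the middle and on the right, at 46.9% and 22.7%.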

How the data were processed

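The authors aligned paired-end reads of 151 bp with Bowtie2 and called peaks with MACS 2.2.7.1 on mm10, pooling 2 ChIP alignment files per list against 1 IgG file, at a p-value of 0.001 for RARα. The deposited pileup is a signal that counts the fragments over each summit. The deposited fold enrichment is the ratio of the pileup plus 1 to the local IgG level plus 1, from which that level was recovered. The deposited p-value and q-value are −log10 values as the authors' peak caller gave them. Gene names and classes are the authors' annotation. Depth is given with the pools, and no sequence was used here.

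Peaks off chromosomes 1 to 19, X and Y were left out. Peaks were shared within 5 kb, pairs were formed by nearest midpoint, and genes were taken from the symbol column. Gene distances came from a RefSeq table of GRCm38.p6, to which 99.7% of the 2257 names were matched. Software was scipy 1.17.1, pandas 2.3.3, numpy 2.4.6 and matplotlib 3.10.9 under Python 3.11.15, and the steps were tested on simulated data. Members, lists and named genes were chosen with earlier results of these data known. Named were the genes of the 6 peaks of smallest p in each state, up to 4 genes per list by highest fold, up to 8 genes with 4 or more peaks, and the peak of smallest p per class. Others are named as few or as conventional examples, after their values were seen. Some genes that the rule names are not reported here. Stricter thresholds, equal-length lists, other overlap distances, other gene assignments, merged peaks and all sequences were tried as alternatives.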

Additional observations from a re-analysis of the deposited data

Results flagged for a closer look

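Outside the chromosomes used here, the RA list held 32 RARα peaks on unplaced sequences and the control list 12. These were singled out as signal in data that the comparisons leave out. Their fold enrichments ran from 1.07 to 3.54 with RA and from 1.14 to 4.64 in control. The median recovered IgG level at them was 1189 fragments with RA and 1651 in control, far above the floor of 2.95 and 2.88, and 20 of the 32 and 9 of the 12 lie in satellite repeats.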

How the results depend on the processing

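With 1 pooled list per condition no replicate could be left out, and depth limits each site to its counting error. No paired analysis was possible because the files of each condition were pooled into 1 list. Under 14 other settings, 39 of 74 values stayed within 1.5 times the count or inside the interval and 35 did not, and the cause was not tested. The control list alone named more genes than the RA list alone under all settings tried for genes. The promoter share was higher in control under all settings but a q of at most 0.05.

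At a −log10 p of at least 5, genes in control only, both and RA only were 772, 183 and 41, shared control and RA peaks 14.9% and 58.3%, the RA promoter share 13.3% and the intergenic shares 47.3% and 52.5%. With the threshold on the counted list alone, shared peaks were 17.9% and 61.7%. At a q of at most 0.05, genes were 656, 145 and 24, shared peaks 15.0% and 72.4%, promoter shares 15.8% in control and 15.8% with RA, and intergenic shares 47.1% and 48.7%. With equal-length lists, genes in control only were 810, shared control peaks 16.3% and the control intergenic share 47.4%. Peaks naming 1 gene gave 529, 77 and 172 genes, and genes within 10 kb of the peak gave 668, 102 and 189. Overlap of at least 1 bp left 7.76% of control peaks shared. Without peaks in repeats, a setting added after seeing the data, genes in both were 173 and in RA only 294, promoter shares 23.5% and 12.4%, and intergenic shares 38.6% and 50.8%. The share of pairs with the lower fold with RA stayed inside its interval in all settings run for it.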
